A study of Mus musculus with 9 samples.

Results

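The insulin-like growth factor (IGF) axis was followed in mouse cardiac ventricles through 10 genes, chosen by name and found at 10 of 24391 gene symbols in the deposited table of normalized counts. They are the ligand genes Igf1 and Igf2, the noncoding RNA gene H19, the receptor genes Igf1r, Igf2r and Insr, the receptor-binding adaptor gene Grb10, and the binding protein genes Igfbp2, Igfbp3 and Igfbp5. The study set young ventricles beside adult ventricles with and without raised beta-catenin activity, with RNA sequencing of 3 libraries in each of 3 groups, all from C57BL/6 mice. The first group, called P6, came from wild-type pups at postnatal day 6, for which the labels name no Cre transgene. Both adult groups were 15 weeks old and carried the alphaMHC Cre recombinase, whose promoter is active in cardiomyocytes, so the allele it recombines is altered in those cells and not in the other cells of the ventricle. Adult control mice were wild type for beta-catenin. In the other adults exon 3 of the beta-catenin gene was deleted, which leaves a stabilized beta-catenin protein. The labels mark all 6 adult libraries, and no P6 library, as a re-analysis, and the adult libraries were also deeper. P6 and adult libraries therefore differ in age, in the Cre transgene and in this mark and depth together, and these cannot be told apart.

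IGF1 and IGF2 are small secreted proteins related to insulin. They signal mainly through the type 1 receptor (Igf1r), IGF2 and insulin also act on the insulin receptor (Insr), and the type 2 receptor (Igf2r) takes up IGF2 and carries it to lysosomes without a kinase signal of its own. The binding proteins hold the ligands outside the cell and can lower or prolong their action. In the mouse Igf2, H19, Igf2r and Grb10 are imprinted, so that 1 parental copy is largely silent in most tissues, and the IGF axis is known as a driver of growth of the fetal and newborn heart.

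Each library held between 7467551 and 23236129 reads assigned to genes, of which the P6 libraries held 7467551 to 7913057, and 15726 to 16515 genes had at least 1 read. Axin2, a textbook target of beta-catenin signalling, was at 50.8, 92.0 and 88.6 normalized counts in adult control, 489, 670.0 and 739.5 with stabilized beta-catenin and 61.7, 57.8 and 60.9 at P6, so the adult labels and this target go the same way. The libraries also differed in sex-linked transcripts. The summed normalized counts of 4 Y-linked genes (Ddx3y, Eif2s3y, Kdm5d and Uty) were 2596 in P6 library 3, 4633 and 2742 in stabilized beta-catenin libraries 1 and 3, and 0 to 3.33 in the other 6 libraries, among them all adult controls. Stabilized beta-catenin library 3 also held 546 normalized counts of Xist, the RNA of the inactive X chromosome, against 11.0 in library 1 and 3711 in library 2. Log2 fold changes of the members between the adult groups are therefore also given with the Y-linked level as a covariate, an alternative chosen after seeing the data. Among the adults this level nearly follows the group, since stabilized beta-catenin library 2 alone is low like the controls. A fit with the covariate therefore leans on library 2, and a call lost there cannot tell the Y-linked difference from the group difference. No label says that each library is a different animal, and the p-values cover only how far libraries of a group spread. In ventricle tissue fewer cells of a type and less RNA per cell cannot be told apart.

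At P6 most of the axis stood higher than in adult control. Of the 9 members tested, 7 were higher (Igf2, H19, Igf1, Grb10, Igfbp5, Igf1r and Igf2r) and 1 was lower (Igfbp3), while Insr did not pass the test. The test was limma on log2(normalized count + 1) with Benjamini-Hochberg adjustment over all genes tested and a threshold of 0.05. Differences between these ages were widespread, with 31.2% of 13398 genes higher and 31.3% lower. The median log2 fold change of the members was 1.45, beside 0.02 for all genes tested. Igfbp2 was below the filter of 10 normalized counts in 3 libraries.

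In adults with stabilized beta-catenin fewer members were called against adult control than at P6. A member that was not called is not thereby shown to be unchanged, since several intervals are wide. Of the 9 members tested, Igfbp5 alone was called higher and 0 were called lower, beside 1.49% and 0.308% of 12971 genes. At an unadjusted p under 0.05, H19, Igf2r and Grb10 were also higher and 0 members were lower. The share of all genes at this looser threshold is not given here, so no shift of the axis is read from it. The median log2 fold change of the members was 0.20, and that of all genes 0.00.

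**Figure D1:**
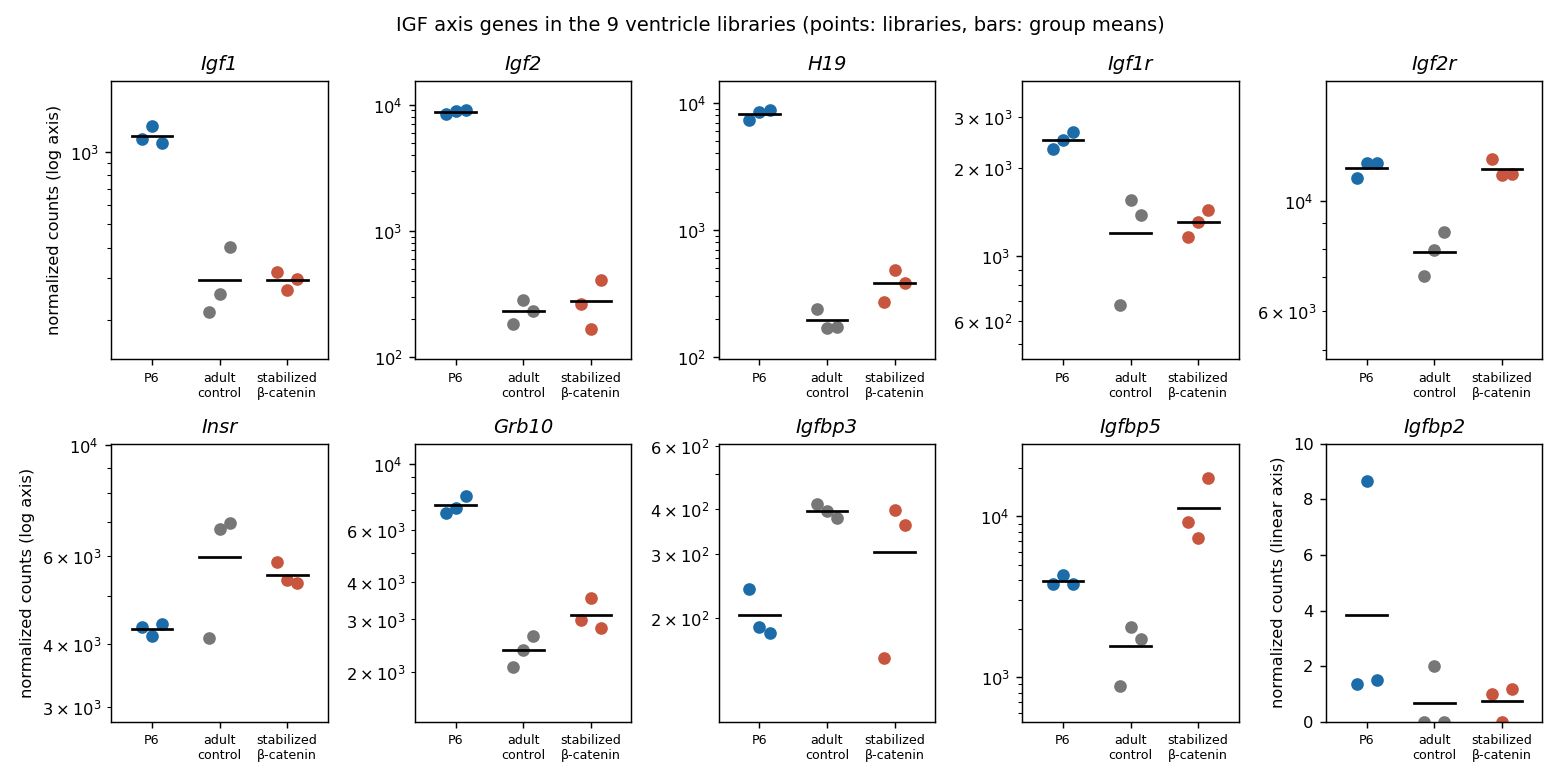
Normalized counts of the 10 IGF axis genes in each of the 9 libraries, on a log axis except for Igfbp2, whose axis is linear. Points are libraries and bars are group means. Igf2 and H19 stand far higher in the P6 libraries than in both adult groups, and Igfbp5 stands highest in the 3 libraries with stabilized beta-catenin.

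Igf2, the ligand gene most tied to growth before and around birth, had 8469, 8842 and 9021 normalized counts in P6 libraries 1, 2 and 3. It had 182, 282 and 229.7 in the adult controls and 265, 168 and 406 with stabilized beta-catenin. Every P6 library stood far above every adult library, and both adult groups overlapped. The means were 8777 ± 282 at P6 and 231 ± 50.2 in adult control (SD, n = 3), a ratio of 38.0 (log2 fold change 5.26, SE 0.16, adjusted p = 3.16e-07). Between the adult groups the log2 fold change was 0.20 with a 95% interval of -0.51 to 0.92 (adjusted p = 0.883), and with the Y-linked covariate it was -0.41. With stabilized beta-catenin Igf2 was lower than at P6 (log2 fold change -5.06, SE 0.24, adjusted p = 1.47e-07).

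H19 is a noncoding RNA transcribed from the neighbouring gene, with which Igf2 shares enhancers, and from the opposite parental copy. It had 7403, 8415 and 8716 normalized counts at P6, 241, 168 and 174 in adult control and 273, 482 and 385 with stabilized beta-catenin. The 3 groups did not overlap with one another: P6 was far above both, and each library with stabilized beta-catenin stood above each adult control. At P6 it was 42.1 times the adult control mean (log2 fold change 5.41, SE 0.16, adjusted p = 2.76e-07). With stabilized beta-catenin the mean was 379.7 ± 105 against 194 ± 40.6 in adult control (SD, n = 3), a ratio of 1.96 that missed the threshold (log2 fold change 0.95, SE 0.23, adjusted p = 0.108). DESeq2 on the whole reads called it (adjusted p = 0.00689), as did limma without adult control library 1 (0.0354), and with the Y-linked covariate the log2 fold change was 1.31 with an adjusted p of 0.219.

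Both genes of the pair host a microRNA, and the mature sequences are shown because they are the small RNA products of the locus that stood highest at P6. Mir675 lies in H19 and Mir483 in Igf2, on the minus strand of chromosome 7. The sequences are those of RefSeq on GRCm38.p6, read 5′ to 3′, with the seed (bases 2 to 8) in capitals. The 5p and 3p products of Mir675 lie at chr7:142577112-142577133 and chr7:142577078-142577099, and those of Mir483 at chr7:142654968-142654989 and chr7:142654932-142654952.
mmu-miR-675-5p: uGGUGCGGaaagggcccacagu
mmu-miR-675-3p: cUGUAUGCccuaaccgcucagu
mmu-miR-483-5p: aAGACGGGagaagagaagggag
mmu-miR-483-3p: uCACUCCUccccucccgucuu
The 4 seeds all differ. The table counts reads on the hairpin gene in libraries whose labels name no small RNA preparation, so it does not measure these mature products. The Mir483 row held 4 reads over the P6 libraries and 0 in each adult group, and the Mir675 row held 0 reads in all 9 libraries. How reads that overlap both a hairpin and its host gene were assigned is not given in the sources used here.

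Around the pair on chromosome 7, the antisense gene Igf2os had 74.0, 72.3 and 69.8 normalized counts at P6, 1.67, 4.04 and 0 in adult control and 3.01, 2.57 and 1.19 with stabilized beta-catenin. It held 151 reads over the P6 libraries and 6 over the adult controls, a ratio of 43.0 with a 95% counting interval of 19.3 to 119. The strand setting of the counting is not given in the sources used here, so reads of Igf2os and Igf2 may not be told apart where the genes overlap. Ins2, the insulin gene beside Igf2, held 5 reads over the P6 libraries and 0 in each adult group, and Nctc1 was at 0 in all libraries.

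Igf1, the ligand that growth hormone raises after birth in many tissues, also stood higher at P6. It had 1125, 1282 and 1087 normalized counts at P6, 216, 258 and 404 in adult control and 317, 266 and 297 with stabilized beta-catenin. The P6 libraries were all above the adult ones, and the stabilized beta-catenin libraries lay within the range of the adult controls. The mean at P6 was 1165 ± 103 (SD, n = 3), 3.98 times the adult control mean of 293 ± 98.8 (log2 fold change 2.04, SE 0.22, adjusted p = 6.60e-05). The adult groups had nearly equal means, with a log2 fold change of 0.05, an interval of -0.47 to 0.57 and an adjusted p of 0.975 (-0.01 with the Y-linked covariate).

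The balance of the ligands moved with age, which a ratio within each library shows without any scaling between libraries. The log2 ratio of Igf2 to Igf1 was 2.91, 2.79 and 3.05 at P6, -0.25, 0.13 and -0.81 in adult control, and -0.26, -0.66 and 0.45 with stabilized beta-catenin. All P6 libraries stood above all adult libraries, and the adult groups overlapped. These ratios are not per length of transcript, so they are read between groups and not as relative levels. The difference between P6 and adult control was 3.23 (exact two-sided permutation p = 0.1, the smallest that 3 against 3 libraries allow; 0.18 after Benjamini-Hochberg adjustment over 18 ratio tests). Between the adult groups it was 0.15 (exact permutation p = 0.8). The log2 ratio of Igf2 to H19 lay between 0.05 and 0.19 in the P6 libraries and between -0.40 and 0.75 in the adult controls, so the groups overlapped, and its lowest value, -1.52, was that of stabilized beta-catenin library 2.

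Likeness of pattern was taken over the 9 libraries among 9697 genes averaging 100 normalized counts or more. The genes outside the axis whose pattern was most like that of Igf2 were Fras1, Plagl1 and Tmem255a. The measure was the root mean square difference of the centred log2 values, and it was 0.347 for Fras1, a basement membrane protein gene, and 0.391 for Plagl1, an imprinted gene of a zinc finger transcription factor. H19 followed at rank 9 with 0.598. Plagl1 had 1494, 1569.6 and 1793 normalized counts at P6, 40.0, 65.7 and 61.2 in adult control and 67.2, 76.2 and 90.7 with stabilized beta-catenin. The genes most like Igf1 were Cdk6, a cell cycle kinase gene, at 0.205, Specc1 at 0.206 and Clcn5, a chloride transporter gene, at 0.221. Among the members, Grb10 was the nearest to Igf1, at 0.379 and rank 168.

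The kinase receptor gene Igf1r had 2334, 2499 and 2654 normalized counts at P6. Adult controls had 679.9, 1554 and 1382, and the libraries with stabilized beta-catenin had 1163, 1314 and 1438. P6 was above both adult groups, control library 1 was lowest of all, and the adult groups overlapped. The P6 mean was 2.07 times that of adult control (log2 fold change 1.13, SE 0.27, adjusted p = 0.00601). Between the adult groups the log2 fold change was 0.20 (interval -0.46 to 0.86; adjusted p = 0.877), and 0.40 with the Y-linked covariate.

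Igf2r, the receptor gene that clears IGF2, had the highest level of the 3 receptor genes in every group when normalized counts were taken per length of transcript. It had 11103, 11889 and 11932 normalized counts at P6, 7037, 7945 and 8640.1 in adult control and 12109.8, 11269.8 and 11320.0 with stabilized beta-catenin. The adult controls stood below all other libraries, and stabilized beta-catenin overlapped P6. P6 was higher than adult control (log2 fold change 0.57, SE 0.14, adjusted p = 0.00569). With stabilized beta-catenin the log2 fold change against adult control was nearly as large but missed the threshold (log2 fold change 0.56, SE 0.14, adjusted p = 0.121). DESeq2 called it (adjusted p = 0.00421), and with the Y-linked covariate it was 0.55 with an adjusted p of 0.663. Against P6 the difference was -0.01 (interval -0.22 to 0.20; adjusted p = 0.934), but with total-count scaling, which moved the median of all genes to -0.41, it was -0.42 and called lower.

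Igf2r lies on chromosome 17 beside Airn, a noncoding RNA that runs antisense over part of Igf2r and silences it on the paternal copy in many mouse tissues. Airn had 725, 613 and 652 normalized counts at P6, 76.7, 148 and 89.3 in adult control and 93.2, 107 and 139 with stabilized beta-catenin. It was higher at P6 than in adult control (log2 fold change 2.71, SE 0.23, adjusted p = 1.95e-05), together with Igf2r, and without a known strand setting reads of the overlap may not be told apart.

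The insulin receptor gene Insr did not pass between P6 and adult control. It had 4334, 4152 and 4389 normalized counts at P6, 4105, 6796 and 6993 in adult control and 5837, 5370.5 and 5294 with stabilized beta-catenin. Control library 1 was the lowest of all 9, and with it adult control overlapped P6. The log2 fold change of P6 against adult control was -0.43 with an interval of -0.89 to 0.02, which did not pass (adjusted p = 0.0886), whereas without control library 1 it was -0.68 with an adjusted p of 1.75e-05. DESeq2 (-0.48), edgeR (-0.52) and limma with TMM factors (-0.53) called it lower, and total-count scaling gave -0.01. With stabilized beta-catenin it was higher than at P6 (log2 fold change 0.36, SE 0.08, adjusted p = 0.00319), but -0.05 with total-count scaling, and against adult control it did not pass (log2 fold change -0.08, adjusted p = 0.952; -0.00279 with the Y-linked covariate).

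The balance of the kinase receptors also differed between ages within each library. The log2 ratio of Igf1r to Insr was -0.89, -0.73 and -0.73 at P6, -2.59, -2.13 and -2.34 in adult control, and -2.33, -2.03 and -1.88 with stabilized beta-catenin. The ratio was higher in each P6 library than in any adult library, and the adult groups overlapped. The difference between P6 and adult control was 1.57 (exact two-sided permutation p = 0.1, adjusted 0.18), and that between the adult groups was 0.27 (exact permutation p = 0.2). The log2 ratio of Igf1r to Igf2r was -2.25, -2.25 and -2.17 at P6, -3.37, -2.35 and -2.64 in adult control, and -3.38, -3.10 and -2.98 with stabilized beta-catenin. P6 overlapped neither adult group, and the adult groups overlapped. P6 was above adult control by 0.57 (exact permutation p = 0.1), and by 0.28 without adult control library 1, while stabilized beta-catenin was at -0.93 against P6 (exact permutation p = 0.1).

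**Figure D2:**
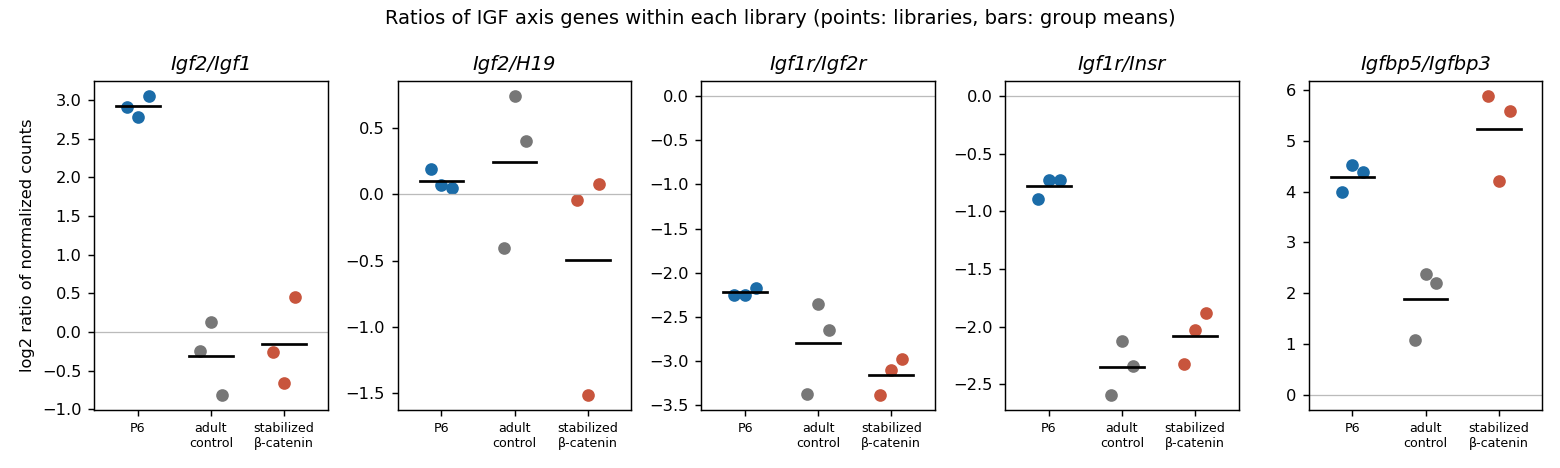
Log2 ratios of normalized counts between pairs of IGF axis genes within each library (points), with group means (bars). Igf2/Igf1 and Igf1r/Insr stand higher in all P6 libraries than in all adult libraries, and Igfbp5/Igfbp3 stands lowest in the adult controls.

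Grb10, an imprinted adaptor that binds the activated Igf1r and Insr and restrains their signalling, had 6838, 7105 and 7800.0 normalized counts at P6. It had 2077, 2377 and 2645 in adult control and 2981, 3544 and 2799 with stabilized beta-catenin. The 3 groups did not overlap, in the order P6, stabilized beta-catenin and adult control. P6 stood 3.06 times above adult control (log2 fold change 1.62, SE 0.13, adjusted p = 1.63e-05). The difference between the adult groups did not pass (log2 fold change 0.39, SE 0.15, adjusted p = 0.325; interval 0.05 to 0.74), nor did it with the Y-linked covariate (0.65, adjusted p = 0.429). On chromosome 11 near Grb10, Ddc, the gene of aromatic amino acid decarboxylase, also stood higher at P6, at 613, 911 and 973 normalized counts against 131, 63.7 and 80.6 in adult control (log2 fold change 3.20, SE 0.27, adjusted p = 2.05e-05), while Cobl on the other side was higher by less (log2 fold change 0.54, SE 0.19, adjusted p = 0.0304). Between Grb10 and Ddc lies 1700042O10Rik, with 3 reads over the P6 libraries and 7 over the adult controls.

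Igfbp5, a secreted binding protein that also attaches to extracellular matrix, had 3806, 4334 and 3805 normalized counts at P6. Adult controls had 875, 2042 and 1737, and the libraries with stabilized beta-catenin had 9163, 7377 and 17415. The 3 groups did not overlap, with stabilized beta-catenin above P6 and P6 above adult control, and library 3 was far above the other two of its group. With stabilized beta-catenin the mean was 11318 ± 5355 against 1551 ± 605 in adult control (SD, n = 3), a ratio of 7.30 (log2 fold change 2.85, SE 0.39, adjusted p = 0.0119; interval 1.97 to 3.74). The call was lost without stabilized beta-catenin library 3 (log2 fold change 2.49, adjusted p = 0.0539). That omission also cut the calls over all genes from 193 higher and 40 lower to 25 and 2. With the Y-linked covariate the log2 fold change of Igfbp5 was 2.49 with an adjusted p of 0.180. It was 2.34 with library 2, the one low in Y-linked transcripts, as the lone library of its group. Over all single-library omissions the log2 fold change stayed between 2.49 and 3.11.

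P6 ventricles had 2.57 times the Igfbp5 of adult control (log2 fold change 1.45, SE 0.28, adjusted p = 0.00179), and stabilized beta-catenin was higher than P6 (log2 fold change 1.41, SE 0.25, adjusted p = 5.24e-04). These comparisons share their P6 and adult control libraries. In the adult comparison 0 of 10 fibroblast, 0 of 10 mural, 0 of 12 cardiomyocyte, 0 of 10 macrophage and 0 of 4 tested epicardial markers were called. Among 10 endothelial markers 1 was called higher (Vwf). As 1.49% of all genes were higher and 0.308% lower there, counts of 0 lie near that share and do not show equal cell content. Of the hepatocyte markers 1 of 2 tested was called higher (Cyp2e1, at 0, 3.03 and 1.44 normalized counts in adult control and 48.1, 10.3 and 69.9 with stabilized beta-catenin, a call lost with the Y-linked covariate), and of the erythroid markers 0 of 3. Their summed levels did not overlap, at 31.3 to 49.0 against 76.2 to 128.0 for 10 hepatocyte markers, of which Alb, Apoc3, Serpina1a and Fgb were at 0 in both groups, and at 465 to 778 against 79.6 to 353 for 8 erythroid markers, of which 4 haemoglobin genes were at 0. The summed fibroblast markers were at 33507 to 42512 normalized counts in adult control and 43024 to 50337 with stabilized beta-catenin, without overlap, and at 59474 to 75009 at P6. The part of these cells in the Igfbp5 result was not tested.

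The promoter of Igfbp5 is shown because this was the member called with stabilized beta-catenin, and that of Igf1 because it was the one member promoter with a match to the core of the motif bound by TCF/LEF factors, the DNA-binding partners of beta-catenin. Both are the 250 bases before the RefSeq gene start on GRCm38.p6, 5′ to 3′ along the gene. The Igfbp5 promoter lies on the minus strand at chr1:72874866-72875115, and that of Igf1 on the plus strand at chr10:87860861-87861110, with the match in capitals.
Igfbp5: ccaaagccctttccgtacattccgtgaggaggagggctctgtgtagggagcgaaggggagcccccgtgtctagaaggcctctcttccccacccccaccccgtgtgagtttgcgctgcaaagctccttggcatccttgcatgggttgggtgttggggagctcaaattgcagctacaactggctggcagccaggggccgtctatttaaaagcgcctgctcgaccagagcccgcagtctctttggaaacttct
Igf1: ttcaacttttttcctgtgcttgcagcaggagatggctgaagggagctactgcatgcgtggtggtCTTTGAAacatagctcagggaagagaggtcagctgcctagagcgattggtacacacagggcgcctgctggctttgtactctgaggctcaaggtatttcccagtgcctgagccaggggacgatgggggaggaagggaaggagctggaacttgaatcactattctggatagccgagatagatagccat
The search used the letters CTTTGAT and CTTTGAA on both strands, where matches on opposite strands may overlap. Of 13 promoter entries for 8 of 10 members, 1 held a match (7.69%), beside 2457 of 32851 entries of all genes (7.48%). Igf1, with a match, did not differ between the adult groups beyond the spread, and Igfbp5 has neither set of letters in this window. Sites outside these 250 bases were not searched, and whether TCF/LEF factors act on either gene was not tested.

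Igfbp3, the binding protein that carries most circulating IGF, was the member that stood lower at P6. It had 239.9, 188 and 181 normalized counts at P6, 413, 394 and 377 in adult control and 154, 398 and 361 with stabilized beta-catenin. P6 stood below all adult controls, and stabilized beta-catenin library 1 stood below the other 5 adult libraries. The P6 mean was 0.514 times that of adult control (log2 fold change -0.97, SE 0.15, adjusted p = 5.05e-04). The adult groups did not differ beyond their spread (log2 fold change -0.49, SE 0.32, adjusted p = 0.628), and with the Y-linked covariate the value was 0.11. Stabilized beta-catenin against P6 gave 0.48 (adjusted p = 0.175), and 0.91 without stabilized beta-catenin library 1, where it was called.

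Among the binding proteins the balance of Igfbp5 to Igfbp3 was lowest in adult control. The log2 ratio was 3.98, 4.52 and 4.38 at P6, 1.08, 2.37 and 2.20 in adult control, and 5.88, 4.21 and 5.59 with stabilized beta-catenin. Adult control overlapped neither of the other groups. It was lower than stabilized beta-catenin by 3.34 and lower than P6 by 2.41 (exact two-sided permutation p = 0.1 for each, adjusted 0.18).

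Igfbp2, which lies beside Igfbp5 on chromosome 1, was almost unread. It had 1, 6 and 1 reads at P6, 0, 2 and 0 in adult control, and 1, 0 and 2 with stabilized beta-catenin. At this depth P6 against adult control, 8 against 2 reads, gave a ratio of 6.83 with a 95% counting interval of 1.36 to 66.0, which covers counting error only and not the spread between libraries. The ratio of stabilized beta-catenin to adult control, 3 against 2 reads, was 1.39 with an interval of 0.16 to 16.7.

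**Figure D3:**
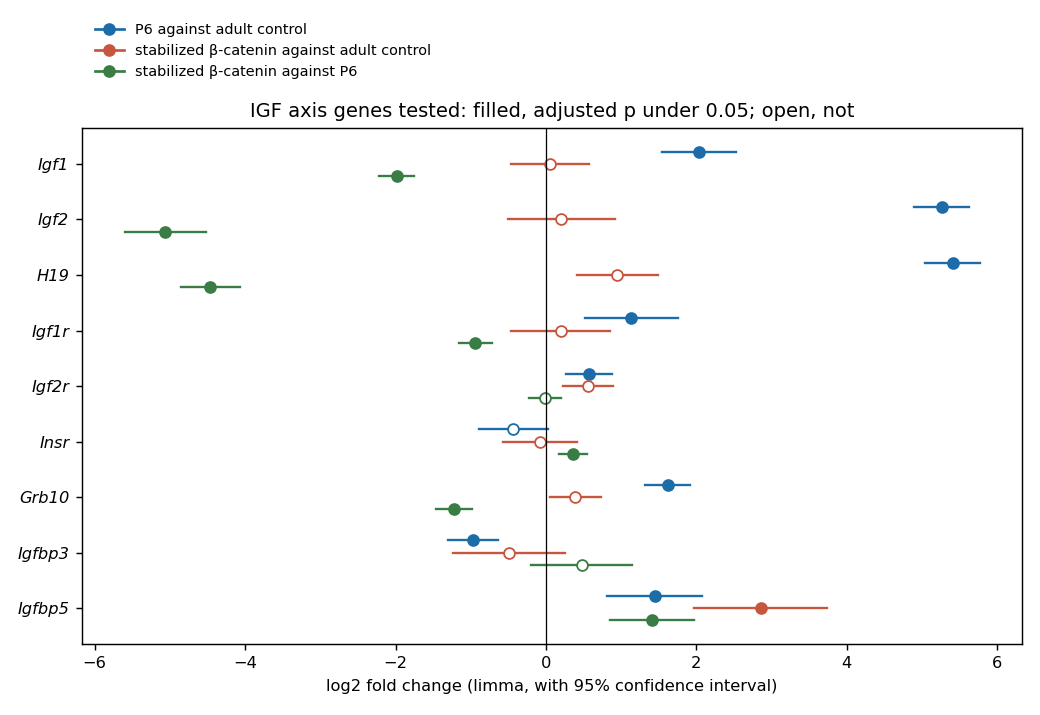
Log2 fold changes of the 9 tested IGF axis genes in the 3 comparisons, with 95% confidence intervals from limma. Filled points passed the adjusted threshold of 0.05. Igf2 and H19 stand beyond 5 at P6 against adult control, and Igfbp5 is the one filled point of stabilized beta-catenin against adult control.

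The order of the members' levels, as normalized counts per 1000 bases of the longest annotated transcript, changed with age. At P6 H19 (3577 ± 301) and Igf2 (1859 ± 59.7) led (SD, n = 3), followed by Grb10 (1432 ± 98.1) and Igf2r (1309.9 ± 52.5), whose libraries came close without overlapping. In adult control Igf2r led at 886 ± 90.5, followed by Insr at 638 ± 172 and Grb10 at 468 ± 56.1, of which Insr and Grb10 overlapped, while Igf1r came at rank 6. The ligands came at ranks 8 and 9, with Igf2 at 48.9 ± 10.6 and Igf1 at 41.5 ± 14.0, which did not differ beyond their spread. With stabilized beta-catenin Igfbp5 came first at 1885 ± 892, but its libraries overlapped those of Igf2r at 1302 ± 53.0. Igf2 and Igf1 stayed at ranks 8 and 9 there, with 59.2 ± 25.4 and 41.6 ± 3.62, and Igfbp2 was last in every group. These levels rest on GENCODE M21 transcript lengths and assume that the longest transcript is the one expressed.

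Stabilized beta-catenin was also set beside P6. Of 9 members tested, 2 were higher (Igfbp5 and Insr) and 5 were lower (Igf2, H19, Igf1, Grb10 and Igf1r), beside 36.5% and 35.8% of 13367 genes, so the share of members called was near that of all genes. The median log2 fold change was -0.94 for the members and 0.00 for all genes tested. The log2 fold change was -1.23 for Grb10, -0.94 for Igf1r and -1.99 for Igf1.

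Of 10 tested genes that set how much ligand is free, 2 were higher at P6 than in adult control and 4 were lower, and with total-count scaling 5 were higher and 3 lower. Pappa2, 1 of the 2, passed the filter only through its P6 level, and the other 9 had a median log2 fold change of -0.25. The shares lie near those of all genes (31.2% higher and 31.3% lower), as do those of the adaptor genes described further on. Igfbp6, a binding protein with a preference for IGF2, had 31.5, 63.6 and 52.0 normalized counts at P6, 137, 128 and 169 in adult control and 259.6, 288 and 297 with stabilized beta-catenin. It rose from P6 through adult control to stabilized beta-catenin with no overlap between groups, lower at P6 (log2 fold change -1.59, SE 0.26, adjusted p = 8.35e-04) and higher with stabilized beta-catenin (log2 fold change 0.96, SE 0.16, adjusted p = 0.0221). The second call was lost when any 1 of adult control library 2 or the stabilized beta-catenin libraries was left out (adjusted p of 0.0585 to 0.165; over all 6 omissions the log2 fold change was 0.88 to 1.08) and with the Y-linked covariate (log2 fold change 1.03, adjusted p = 0.210). Pappa2, a protease that cleaves binding proteins, held 43 reads at P6 and 3 in adult control, a ratio of 24.5 with a 95% counting interval of 7.84 to 123. Igfals, the subunit that holds IGF in its circulating complex, was lower at P6 (log2 fold change -1.45, SE 0.33, adjusted p = 0.00488).

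Of 5 tested genes that carry growth hormone and insulin signals into the axis, 1 was higher and 4 were lower at P6, a split that depends on the scaling. Of all genes tested, 31.2% were higher and 31.3% lower. The growth hormone receptor gene Ghr had 1459.7, 1477 and 1406 normalized counts at P6 and 3513, 3226 and 3819 in adult control. Ghr was lower at P6 (log2 fold change -1.28, SE 0.11, adjusted p = 2.58e-05), while Igf1 was higher. The part of growth hormone signalling in the level of Igf1 was not tested. Socs2, a feedback inhibitor of growth hormone signalling, was higher at P6 (log2 fold change 0.99, SE 0.24, adjusted p = 0.00669), and Jak2, the kinase bound to Ghr, was lower (log2 fold change -0.62, SE 0.16, adjusted p = 0.00817). With total-count scaling, which moved the median of all genes to 0.45, 1 of the list was higher and 1 lower. With stabilized beta-catenin 0 of 5 were called against adult control, near the shares of all genes there (1.49% higher and 0.308% lower).

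Among the receptor adaptors and negative regulators 3 of 10 were higher and 2 lower at P6 (5 and 2 with total-count scaling). Grb14, an adaptor related to Grb10, went against it, with 900.1 ± 47.0 normalized counts at P6 and 2619 ± 269 in adult control (SD, n = 3; log2 fold change -1.54, SE 0.12, adjusted p = 1.31e-05). With stabilized beta-catenin 1 of 10 was called against adult control, beside 1.49% of all genes higher and 0.308% lower. Irs1, the docking protein gene for the activated Igf1r and Insr, had 1780.4, 1819.6 and 1981 normalized counts at P6, 1959, 2140.3 and 2079 in adult control and 4365, 5520.2 and 5227 with stabilized beta-catenin. The 3 libraries with stabilized beta-catenin were each above all others. Irs1 was higher there than in adult control (log2 fold change 1.28, SE 0.14, adjusted p = 0.00451) and than at P6 (log2 fold change 1.43, SE 0.10, adjusted p = 1.26e-06), while P6 and adult control gave -0.15 (adjusted p = 0.271). The call against adult control was lost without stabilized beta-catenin library 3 (log2 fold change 1.25, adjusted p = 0.0539) and with the Y-linked covariate (1.47, adjusted p = 0.0589), at a size that hardly moved.

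Further down, 3 of 19 genes of the PI3K-Akt-mTOR cascade were higher at P6 and 7 lower, and 10 higher and 2 lower with total-count scaling, so that the split depends on the scaling. Pik3r1, the gene of the main regulatory subunit of PI3K, was lower at P6 (log2 fold change -2.02, SE 0.27, adjusted p = 2.65e-04), and Pik3r3, that of another regulatory subunit, was higher (log2 fold change 1.04, SE 0.12, adjusted p = 1.14e-04). Of 8 genes of FoxO factors and their target transcripts, 0 were higher and 6 lower at P6, with a median log2 fold change of -1.20. Of all genes tested, 31.2% were higher and 31.3% lower. The activity of Akt was not tested. Fbxo32, a ubiquitin ligase gene of muscle wasting, had 1067 ± 89.5 normalized counts at P6 and 5193 ± 1194 in adult control (SD, n = 3; log2 fold change -2.26, SE 0.18, adjusted p = 1.45e-05), and Foxo3 itself was lower (log2 fold change -1.45, SE 0.22, adjusted p = 4.67e-04). With total-count scaling 2 of this list were higher and 5 lower. In neither list was a gene called with stabilized beta-catenin against adult control, 0 of 19 and 0 of 8. These counts lie near the shares of all genes in that comparison, 1.49% higher and 0.308% lower.

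The list of the Igf2-H19 locus and its regulators, which also holds Airn of the Igf2r locus, had 10 genes tested. Of these, 4 (Igf2bp1, Igf2bp3, Lin28b and Zfp57) passed the filter only through their P6 level and had to differ. Of the 6 that also passed among the adult libraries, 4 were higher at P6 than in adult control and 0 lower, with a median log2 fold change of 1.49. Igf2bp3 and Igf2bp1, RNA-binding proteins named for their binding of Igf2 mRNA, held 516 and 169 reads at P6 against 2 and 0 in adult control. With 3 reads over the group taken as the floor, Igf2bp1 was 96.2-fold higher, and its 95% counting interval starts at 77.4-fold. Plagl1, already named for its likeness to Igf2, was higher too (log2 fold change 4.87, SE 0.20, adjusted p = 9.23e-07). With stabilized beta-catenin 0 of these 6 were called against adult control, and 6 were lower than at P6. The shares of all genes tested were 31.2% higher at P6 than in adult control and 35.8% lower with stabilized beta-catenin than at P6. Between the adult groups they were 1.49% higher and 0.308% lower, so a count of 0 there lies near the share of all genes.

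**Figure D4:**
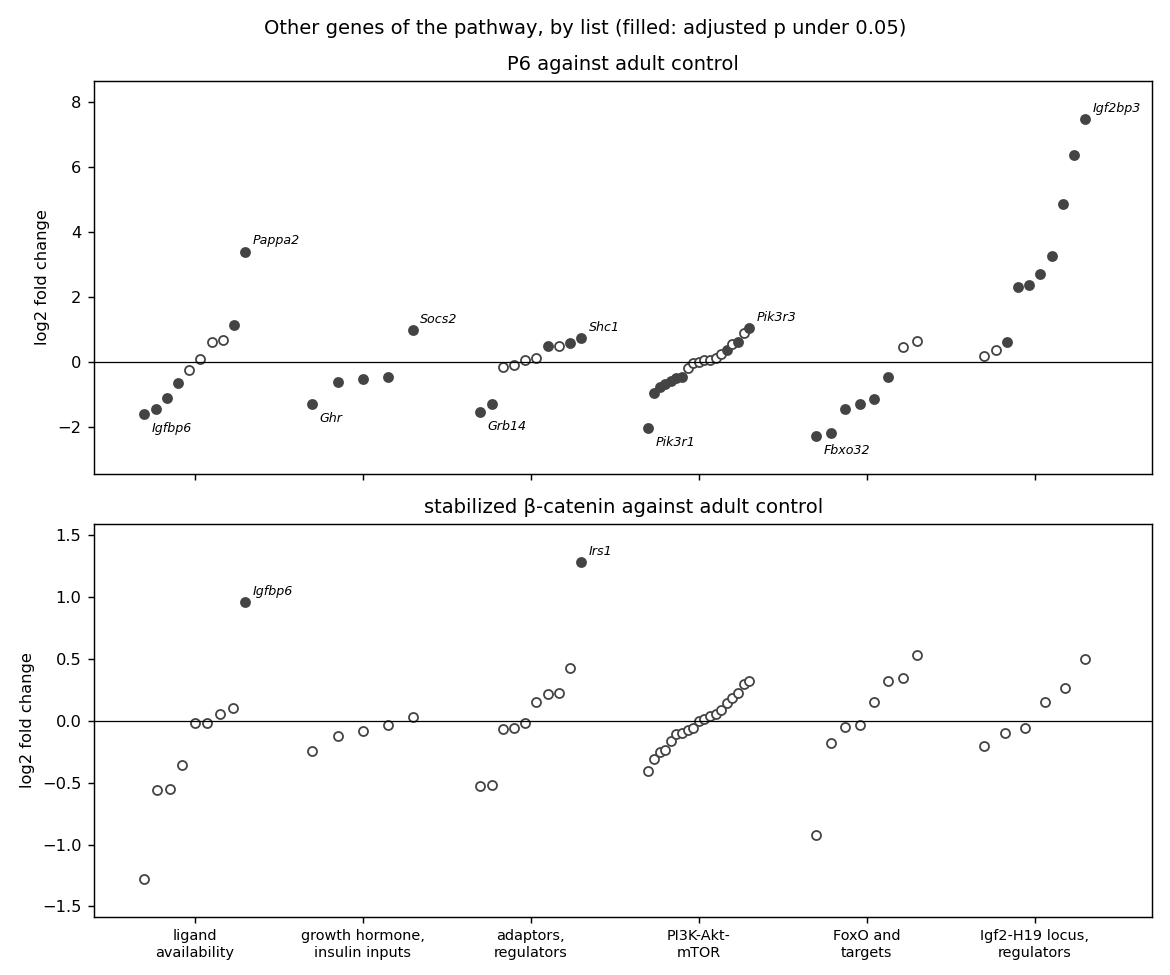
Log2 fold changes of genes of 6 IGF pathway lists at P6 against adult control (upper panel) and with stabilized beta-catenin against adult control (lower panel), one point per tested gene. Filled points passed the adjusted threshold of 0.05. At P6 the points of the Igf2-H19 locus list lie high and those of the FoxO list low. Of the locus list, Igf2bp1, Igf2bp3, Lin28b and Zfp57 passed the filter only through their P6 level and had to stand high. In the lower panel Irs1 and Igfbp6 are the filled points. Igf2bp1 had 0 reads in adult control, so the height of its point rests on the pseudocount of 1.

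Cell type markers moved with age beside these genes. Of 7 epicardial markers tested, 3 (Bnc1, Krt19 and Msln) passed the filter only through their P6 level, and the other 4 were all higher at P6 than in adult control. The summed level of the 8 listed was 1261 to 1499 normalized counts against 226 to 300.0. Of 10 fibroblast markers 5 were higher and 2 lower, and of 10 endothelial markers 7 were higher and 1 lower. Of 12 cardiomyocyte markers 0 were higher and 8 lower, and of 10 mural markers 4 were higher and 3 lower. Of 4 erythroid markers tested 3 were higher and 0 lower, of which Epb4.2 passed the filter only through its P6 level. Of all genes tested, 31.2% were higher and 31.3% lower. Macrophage markers, from cells that are a known source of Igf1, were lower in 9 and higher in 1 of 10, at sums of 1304 to 1487 at P6 and 4171 to 6674 in adult control, while Igf1 was higher. The part of these cell types in the age differences of Igf2, H19, Igf1, Grb10 and Igfbp5 was not tested.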

How the data were processed

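RNA of mouse cardiac ventricles was sequenced in 3 libraries per group, and groups were taken from the labels. Bowtie2 2.0, DESeq2 and the build mm9 are named, per the submitters' processing notes, and htseq-count was the counter per the file headers. The annotation and strand setting are not given in the sources used here. The authors deposited a table of 24391 genes whose entries are a signal, namely a count over 1 factor per library, and, for the P6 libraries, the raw count of each gene. Scaling the table back gave whole reads for 100% of its entries (tolerance 0.001), and at P6 these were identical to the raw counts for 24364 of 24364 genes matched by name. In the sheets not used, 27 per-sample columns were left aside.

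A comparison used the libraries of its groups alone. A gene was tested if 3 or more of them held 10 or more normalized counts. The test was the two-sided moderated test of limma 3.58.1 with a mean-variance trend (R 4.3.3), run on log2(normalized count + 1), with Benjamini-Hochberg adjustment over all genes tested and a threshold of 0.05. Ratios within libraries were tested by exact permutation in SciPy 1.17.1. Fold changes are on the log2(normalized count + 1) scale, which understates low genes. Genes with few reads were given as ratios with exact 95% counting intervals, which, like the floor of 3 reads, cover counting error only. Levels per 1000 bases used the longest transcript of GENCODE M21 on GRCm38, and neighbours were taken from the RefSeq gene order, for names only. The fit was tested on simulated data. The alternatives were TMM factors, total-count scaling, pseudocounts of 0.5 and 5, no filter, edgeR 4.0.16 and DESeq2 1.42.0 on whole reads, a replicate block and each library left out in turn. The fits with Y-linked transcripts were chosen after seeing the data.

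The members, gene lists and rules were chosen with earlier results of these data known. Named beside the members were, from each pathway list, called genes among the 3 of largest change, and some of the neighbouring genes, not all. The values of 1 neighbouring gene are not reported here.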

Additional observations from a re-analysis of the deposited data

How the results depend on the processing

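Of the 9 members tested, 1 was lower at P6 than in adult control, and 2 (with Insr) by TMM factors, edgeR or DESeq2; with single libraries left out the count was 1 to 2. Against adult control 1 member was higher with stabilized beta-catenin, 3 by DESeq2, 0 with the Y-linked covariate, 0 among the libraries low in Y-linked transcripts, and 0 to 2 with single libraries left out (0 without stabilized beta-catenin library 3, 2 without adult control library 1). Higher than at P6 with stabilized beta-catenin were 2 members, and 1 with total-count scaling. The other 84 of 94 recomputed counts of members stayed within 1.5 times.

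Directions turned in members that had not passed the test and in 1 that had (Insr). In the adult comparison the range with single libraries left out was -0.14 to 0.31 for Igf1, -0.11 to 0.52 for Igf2, -0.17 to 0.42 for Igf1r and -0.33 to 0.0571 for Insr. With the Y-linked covariate Igf1 was -0.0128, Igf2 -0.41 and Igfbp3 0.11, and among the libraries low in Y-linked transcripts they were -0.0845, -0.44 and 0.0117. Against P6, Igf2r was 0.0398 with TMM factors and -0.0430 to 0.00905 with single libraries left out, and Insr, a call, was -0.0507 with total-count scaling. The log2 ratio Igf2/H19 at P6 against adult control ranged from -0.47 to 0.11, Igf2/Igf1 between the adult groups from -0.15 to 0.41, and Igfbp5/Igfbp2 at P6 against adult control, which rests on 0 to 6 reads of Igfbp2, from -0.29 to 0.64 (-0.47 with a pseudocount of 0.5). For these the cause was not tested.

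Same-numbered libraries showed no strong shared deviation (correlations of -0.12 to 0.20), and 1, 3 and 3 of 6 libraries were closest to their own number. With 3 libraries per group this check cannot exclude a pairing. With the replicate block the members called were 7 and 1, 1 and 0, and 2 and 5 (higher and lower, in the order of the text), as without it. All calls moved from 193 and 40 to 209 and 66 between the adult groups, and with the Y-linked covariate to 28 and 10. Depth limits Igfbp2 and the hairpin genes.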
